A study of Mus musculus with 20 samples.

Results

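The gene sets described here are those named for histone deacetylases (HDACs). Most are sets of genes that change when a deacetylase is inhibited or depleted, or sets of the deacetylases and their partners. They were chosen by name, as every set with HDAC or TRICHOSTATIN in its name and none of EZH2, PRC2, H3K27 or NOTCH, in the enrichment reports of 7 comparisons. The rule found 29 sets among the 3883 listed for each myeloid comparison, and the same 29 among the 3871 listed for the cell lines. None of the names held TRICHOSTATIN, so sets for that inhibitor enter only through studies that put HDAC in the name. Names ending in UP numbered 10, names ending in DN 11, and 8 had neither ending. By source, 8 sets were targets of knockdown (SENESE) and 8 were responses to inhibitors (HELLER, PEART and MARKS). Another 6 were curated pathways (REACTOME, PID and BIOCARTA), and 7 came from other work (PELLICCIOTTA, KASLER, ROPERO and MARTIN). The PELLICCIOTTA study also concerned deacetylase inhibition, but its sets were kept with the other work here.

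Histone deacetylases remove acetyl groups from lysines of histone tails and of other proteins, which generally compacts chromatin and lowers transcription. HDAC1, HDAC2 and HDAC3 are class I enzymes that act in nuclear corepressor complexes, HDAC7 is a class IIa enzyme recruited by tissue-specific transcription factors, and the sirtuins form class III. Inhibitors such as trichostatin A, vorinostat, romidepsin and butyrate arrest the growth of many tumour lines, and in myeloid cells deacetylases act on differentiation and on inflammatory gene expression. For SENESE, HELLER, PEART, MARKS and PELLICCIOTTA, an UP set holds the genes that were higher after inhibition or depletion in its source study. A DN set holds those that were lower. This reading was not extended to the KASLER sets. Most source studies used human tumour lines rather than mouse leukocytes.

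The samples were C57BL/6 mouse material: myeloid cells of adult animals, taken from marrow and spleen after CD3e-expressing cells were depleted, and the mouse melanoma lines B16F10 and YUMM3.3 in culture. B16F10 was selected for metastasis from a spontaneous tumour, and YUMM3.3 was derived from a genetically engineered mouse. Bone marrow had 3 libraries from B16F10-bearing, 2 from YUMM3.3-bearing and 3 from healthy animals, spleen had 2 of each, and the lines had 3 libraries of YUMM3.3 and 3 of B16F10. CD3e depletion takes away T cells and leaves every other cell type, each line stands for 1 tumour, and the labels do not say which libraries came from the same animal. Each comparison pools the libraries of its groups into 1 value per set, the normalised enrichment score (NES), which measures how far the genes of a set gather at one end of the ranked gene list, scaled for set size. In every value below a positive NES means higher in the first-named group and a negative one lower. A set was called at a deposited false discovery rate q (FDR q) below 0.05. The spread between replicates could not be computed, and library depth is unknown. Nominal p values above 0 went down to 0.00103 in the authors' deposited tables, while relabelling so few libraries cannot go below 0.05 to 0.167, so FDR q carries no information on the spread among animals or cultures. Gene levels were not analysed here, so the myeloid label was not checked against marker genes, and fewer cells of a type and less RNA per cell cannot be told apart.

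Of the 29 sets, 16 were called in at least 1 comparison and 13 in none, so 55.2% were called at least once, against 55.6% of the 3868 sets listed in all 7 comparisons. Among the 203 values 36 were called, 17.7%, against 17.3% of all 27169 values, so the HDAC sets as a whole were called at the background share. The 13 sets without a call had NES between -1.58 and 1.55 in the authors' deposited tables. The calls did not spread evenly over the sources: the knockdown sets held 4 of the 8 in YUMM3.3-bearing over healthy marrow and all 6 in the lines, while PEART, PELLICCIOTTA and E2F sets held 8 of the 10 in spleen.

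**Figure D1:**
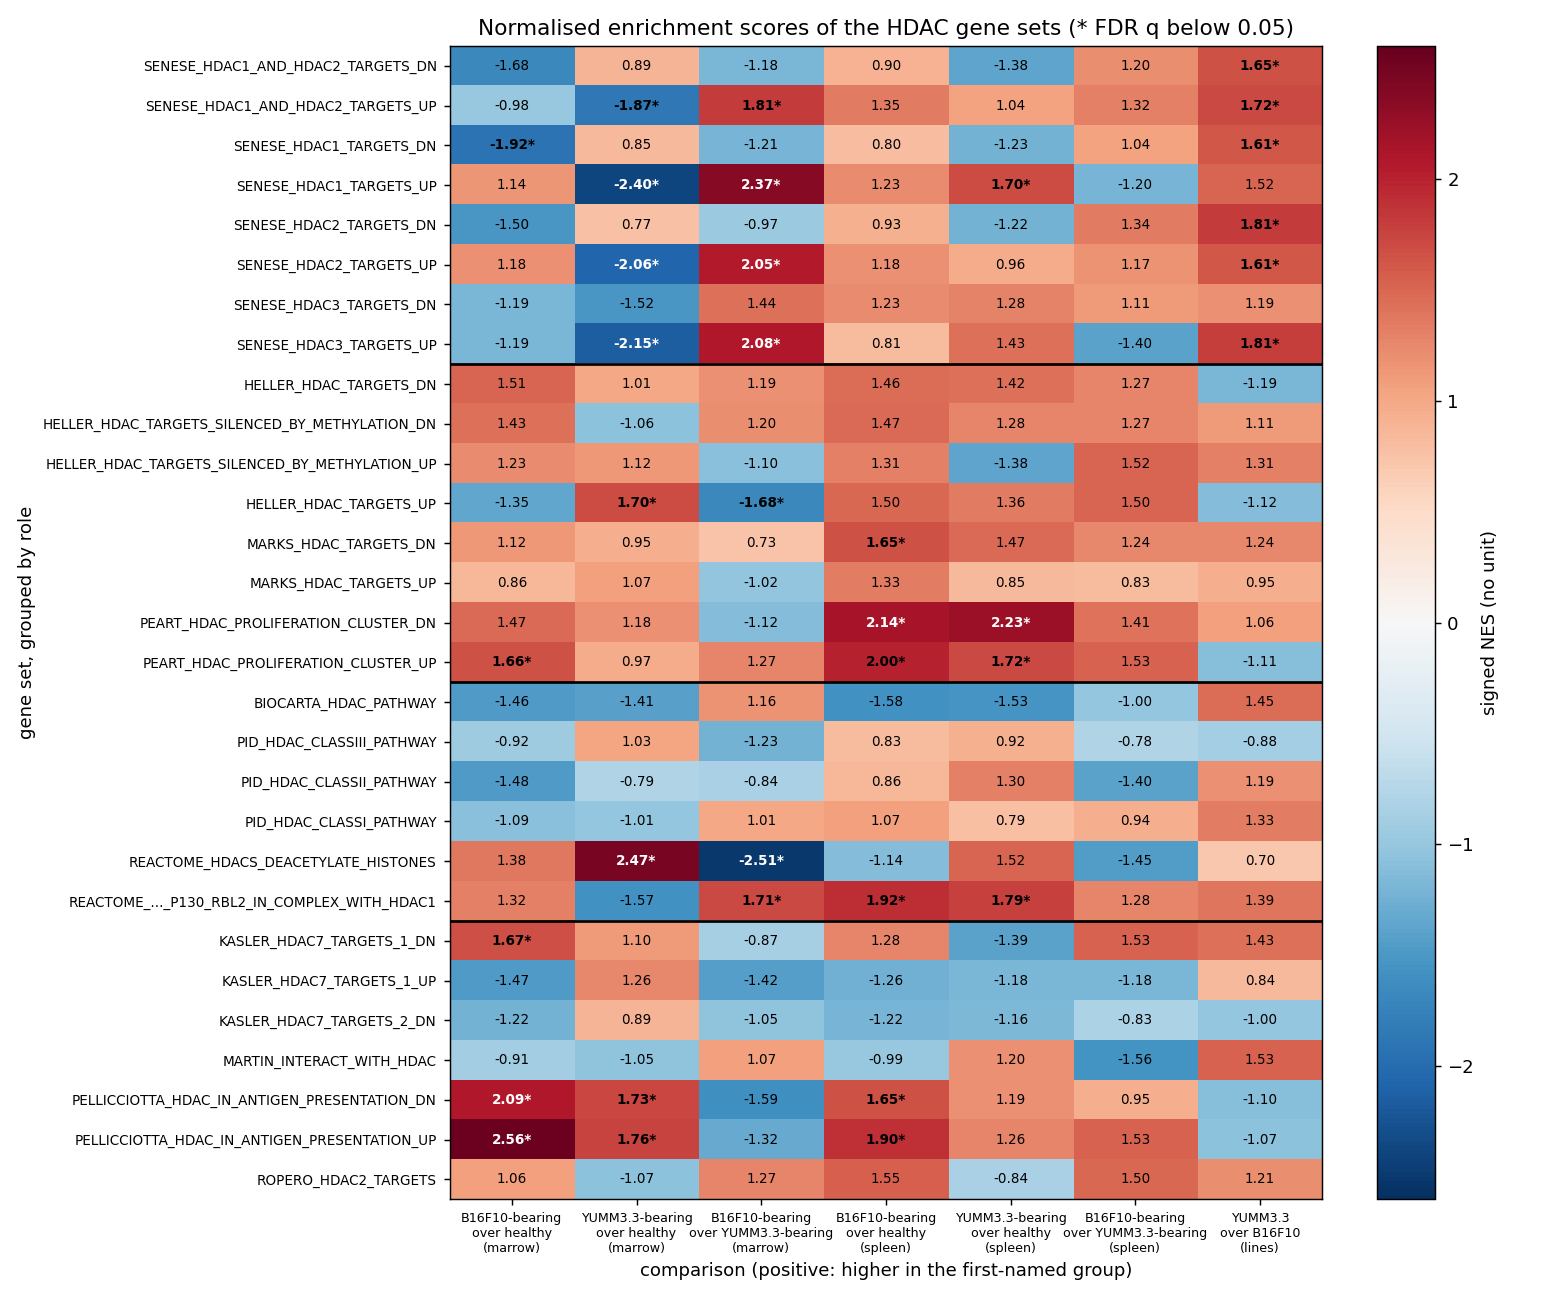
Signed NES (colour and number, no unit) of the 29 HDAC sets (rows, grouped by source) in the 7 comparisons (columns), with an asterisk at FDR q below 0.05. The 4 SENESE UP sets stand out as lower in YUMM3.3-bearing over healthy marrow, from -2.40 to -1.87, and the column of B16F10-bearing over YUMM3.3-bearing spleen has no call.

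In bone marrow of B16F10-bearing over healthy animals, 4 HDAC sets were higher and 1 was lower. That is 13.8% and 3.45% of the sets, against 20.1% and 5.0% of all listed sets, so the HDAC sets were not called more often than sets at large. The higher sets were both PELLICCIOTTA sets, PEART_HDAC_PROLIFERATION_CLUSTER_UP and KASLER_HDAC7_TARGETS_1_DN, and the lower set was SENESE_HDAC1_TARGETS_DN. In marrow of YUMM3.3-bearing over healthy animals, 4 were higher and 4 lower, 13.8% each way, against 9.68% and 6.52% of all listed sets. The 4 lower sets were all of the SENESE UP kind. Between the tumours in marrow, 5 were higher and 2 lower in B16F10-bearing animals, 17.2% and 6.9%, against 8.09% and 8.4% of all listed sets. The 3 marrow comparisons share libraries, so their values are not independent of each other.

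In spleen of B16F10-bearing over healthy animals, 6 HDAC sets were higher and 0 lower, 20.7% higher against 16.6% of all listed sets, where 1.6% were lower. In spleen of YUMM3.3-bearing over healthy animals, 4 were higher and 0 lower, 13.8% higher against 15.6% of all listed sets, where 5.31% were lower. Between the tumours in spleen 0 of the 29 were called either way, with NES from -1.56 to 1.53 in the authors' deposited table, while 9.63% of all listed sets were higher and 1.47% lower. In culture, YUMM3.3 over B16F10 had 6 HDAC sets higher and 0 lower, 20.7% higher against 11.8% of all listed sets, where 1.47% were lower. All 6 were SENESE sets.

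The SENESE sets come from depletion of HDAC1, HDAC2 or HDAC3 by RNA interference in a human osteosarcoma line. In YUMM3.3-bearing over healthy marrow, the 4 UP sets were lower and the 4 DN sets had no call. SENESE_HDAC1_TARGETS_UP, with 363 genes, had a signed NES of -2.40 in the authors' deposited table, with an FDR q listed as 0. It stood at position 8 of the 1823 sets listed as lower, and 49% of its genes lay within the 24% of the ranked list nearest the healthy end. SENESE_HDAC3_TARGETS_UP, with 402 genes, had an NES of -2.15 in the same deposited table (FDR q = 0.000928). Genes that depletion of HDAC1 or HDAC3 raised in the osteosarcoma cells thus gathered at the healthy end of the list. SENESE_HDAC2_TARGETS_UP had a normalised score of -2.06 in the authors' deposited table (FDR q = 0.00310), and 45% of its 93 genes lay in the leading edge, the part of a set that carries its score. SENESE_HDAC1_AND_HDAC2_TARGETS_UP had an NES of -1.87 there (FDR q = 0.0149). Sets of 1 study can share genes, and the overlaps were not counted here.

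The DN partners of the same studies showed another picture in that marrow. The authors' deposited table gave SENESE_HDAC1_TARGETS_DN an NES of 0.85, SENESE_HDAC2_TARGETS_DN 0.77 and SENESE_HDAC1_AND_HDAC2_TARGETS_DN 0.89. SENESE_HDAC3_TARGETS_DN, at -1.52 in the authors' deposited table, lay on the same side as its UP partner. The NES of the UP set minus that of the DN set was -3.25 for HDAC1, -2.83 for HDAC2, -2.76 for HDAC1 with HDAC2 and -0.632 for HDAC3. These gaps were not tested.

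With B16F10, the SENESE set called against healthy marrow was a DN set. SENESE_HDAC1_TARGETS_DN was lower in B16F10-bearing over healthy marrow, with NES = -1.92 in the authors' deposited table (FDR q = 0.00940), and 30% of its 199 genes were in the leading edge. SENESE_HDAC1_AND_HDAC2_TARGETS_DN, at -1.68, fell just outside the threshold in the authors' deposited table (FDR q = 0.0538). SENESE_HDAC2_TARGETS_DN had -1.50 and SENESE_HDAC3_TARGETS_DN -1.19 in that table, so all 4 DN sets were on the healthy side and 1 was called. The UP sets had small scores of either sign in the authors' deposited table: 1.14 for HDAC1, 1.18 for HDAC2, -1.19 for HDAC3 and -0.98 for HDAC1 with HDAC2. Between the tumours, SENESE_HDAC1_TARGETS_UP was higher in B16F10-bearing than YUMM3.3-bearing marrow, with a signed NES of 2.37 in the authors' deposited table, position 9 of the 2007 sets listed as higher. The NES of the other 3 UP sets in that table were 2.08 for HDAC3, 2.05 for HDAC2 and 1.81 for HDAC1 with HDAC2, all of them called. This contrast uses the same YUMM3.3-bearing libraries as the one above.

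In spleen, 1 of the 8 SENESE sets was called, once. SENESE_HDAC1_TARGETS_UP was higher in YUMM3.3-bearing over healthy spleen, with a normalised score of 1.70 in the authors' deposited table (FDR q = 0.0173), against -2.40 in marrow of the same tumour. The difference between the tissues was not tested. For B16F10-bearing over healthy spleen all 8 SENESE sets had a positive NES in the authors' deposited table, from 0.80 to 1.35, with 0 called. With YUMM3.3 over healthy spleen, the other 3 UP sets had 0.96 to 1.43 in the authors' deposited table, and the DN sets had -1.38 for HDAC1 with HDAC2, -1.23 for HDAC1, -1.22 for HDAC2 and 1.28 for HDAC3, with 0 of these 7 called. Between the tumours in spleen, B16F10 over YUMM3.3, the 8 sets ranged from -1.40 to 1.34 in the authors' deposited table.

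In culture, all 8 SENESE sets lay toward YUMM3.3 over B16F10, UP and DN alike. SENESE_HDAC2_TARGETS_DN had the largest NES, 1.81 in the authors' deposited table (FDR q = 0.00484), and SENESE_HDAC3_TARGETS_UP followed with 1.81 (FDR q = 0.00502). SENESE_HDAC1_AND_HDAC2_TARGETS_UP had 1.72 in that deposited table and its DN partner 1.65. SENESE_HDAC2_TARGETS_UP, at 1.61 in the authors' deposited table (FDR q = 0.0400), and SENESE_HDAC1_TARGETS_DN, also at 1.61 (FDR q = 0.0402), were called close to the threshold. SENESE_HDAC1_TARGETS_UP, with 1.52, and SENESE_HDAC3_TARGETS_DN, with 1.19, were not called in the authors' deposited table. In the lines, therefore, 3 sets of genes that depletion raised and 3 sets of genes that it lowered were higher in YUMM3.3. The family-wise p of each of the 6 called sets was between 0.435 and 1.

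**Figure D2:**
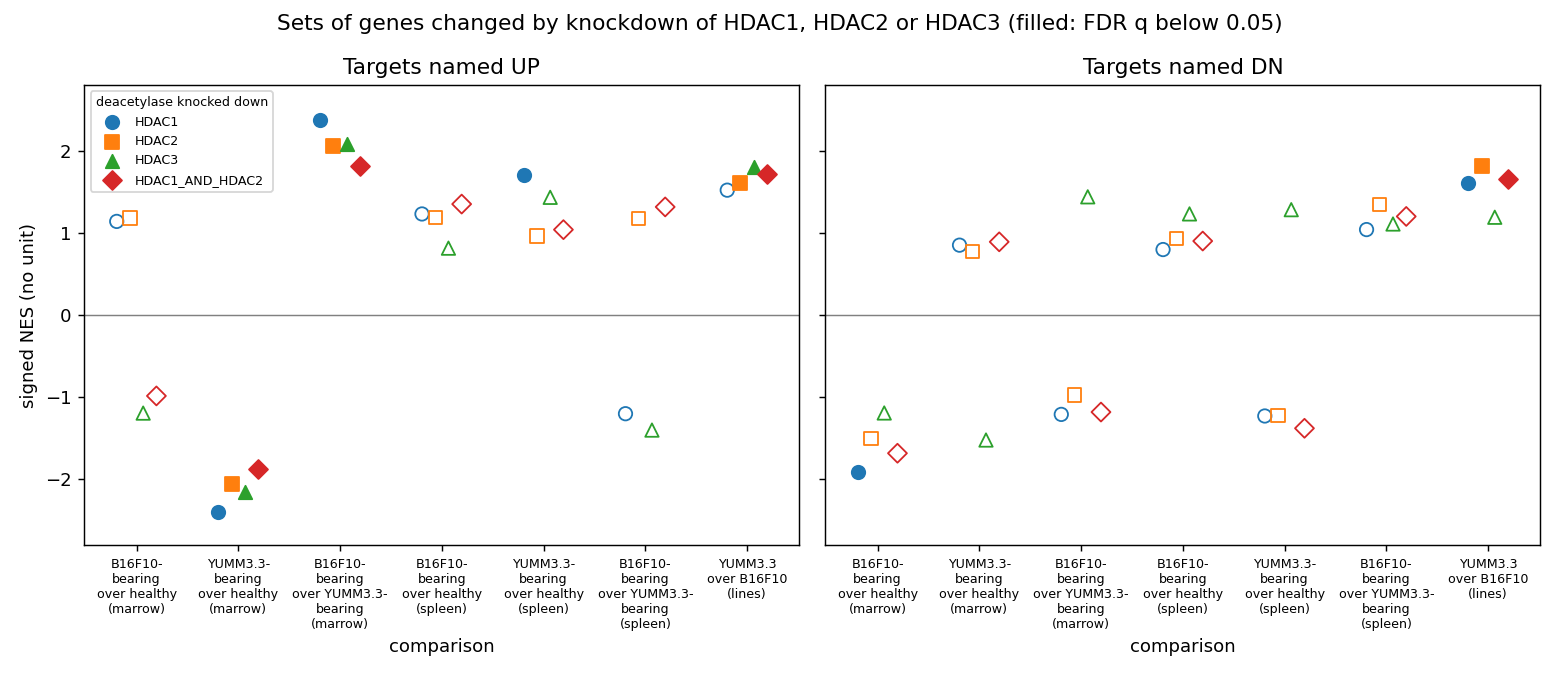
Signed NES (vertical axis, no unit) of the 4 SENESE UP sets (left) and the 4 SENESE DN sets (right) in the 7 comparisons, 1 symbol per depleted deacetylase and filled at FDR q below 0.05. The UP sets lie between -2.40 and -1.87 in YUMM3.3-bearing over healthy marrow, where the DN sets lie between -1.52 and 0.89.

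Of the 8 HELLER, PEART and MARKS sets of inhibitor responses, 4 were called at least once. The PEART sets group genes of cell proliferation that vorinostat and romidepsin raised (UP) or lowered (DN) in leukemia cells, and both were higher in spleen of tumour-bearing animals. PEART_HDAC_PROLIFERATION_CLUSTER_DN had an NES of 2.23 in YUMM3.3-bearing over healthy spleen in the authors' deposited table (FDR q = 1.28e-05), with 43% of its 63 genes within the first 10% of the ranked list. In B16F10-bearing over healthy spleen its NES was 2.14 in the authors' deposited table (FDR q = 2.35e-05). PEART_HDAC_PROLIFERATION_CLUSTER_UP had an NES of 1.72 in YUMM3.3-bearing over healthy spleen in the authors' deposited table (FDR q = 0.0145). For B16F10-bearing over healthy spleen it had 2.00 in the authors' deposited table (FDR q = 0.000496). The set raised by inhibitors and the set lowered by them thus moved to the same side. In marrow, the UP set was called in B16F10-bearing over healthy animals, with NES = 1.66 in the authors' deposited table (FDR q = 0.0298), where the DN set had 1.47. In YUMM3.3-bearing over healthy marrow the UP set had 0.97 and the DN set 1.18 in the authors' deposited table, neither called.

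Sets for the cell cycle moved with the PEART sets in spleen. The targets of E2F3, a factor that drives cells into S phase (KONG_E2F3_TARGETS), scored 3.37 in YUMM3.3-bearing over healthy spleen and 2.84 in B16F10-bearing over healthy spleen in the authors' deposited tables. FISCHER_G2_M_CELL_CYCLE had 3.24 and 2.58 in the same deposited tables. Their part in the PEART scores was not tested, and genes that the sets have in common were not counted here. For YUMM3.3-bearing over healthy marrow the 2 cell cycle sets had NES of -1.66 and -2.17 in the authors' deposited table. Both lay on the same side as the SENESE UP sets, and the first was not called (FDR q = 0.0507). In B16F10-bearing over healthy marrow they had 1.82 and 1.87 in the authors' deposited table, both called. The SENESE UP sets had scores of either sign there, with none called. The part of the cell cycle sets in the SENESE scores was not tested either.

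The HELLER sets come from multiple myeloma lines treated with trichostatin A, alone or with a DNA demethylating agent for the sets named SILENCED_BY_METHYLATION. Of the 4, HELLER_HDAC_TARGETS_UP was called: it was higher in YUMM3.3-bearing over healthy marrow, with a signed NES of 1.70 in the authors' deposited table (FDR q = 0.0288). It was lower in B16F10-bearing over YUMM3.3-bearing marrow, with -1.68 in the authors' deposited table (FDR q = 0.0369). Its leading edge held 22% and 23% of its 258 genes, a smaller share than in the other sets called in marrow, which had 29% to 72%. In B16F10-bearing over healthy marrow its NES was -1.35 in the authors' deposited table and was not called. HELLER_HDAC_TARGETS_UP and the knockdown UP sets lay on opposite sides in YUMM3.3-bearing marrow. The other 3 HELLER sets had NES from -1.38 to 1.52 over the 7 deposited comparisons.

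The MARKS sets list genes that deacetylase inhibitors alter in transformed cells. MARKS_HDAC_TARGETS_DN, with 15 genes, was higher in B16F10-bearing over healthy spleen, with a normalised score of 1.65 in the authors' deposited table (FDR q = 0.0397). Its UP partner had 1.33 in that table and was called in 0 of the 7 comparisons. A set of 15 genes is at the lower size limit of the reports, and 33% of its genes carried the score. In the lines, the inhibitor sets of HELLER, PEART and MARKS had NES from -1.19 to 1.31 for YUMM3.3 over B16F10 in the authors' deposited table, with 0 called.

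**Figure D3:**
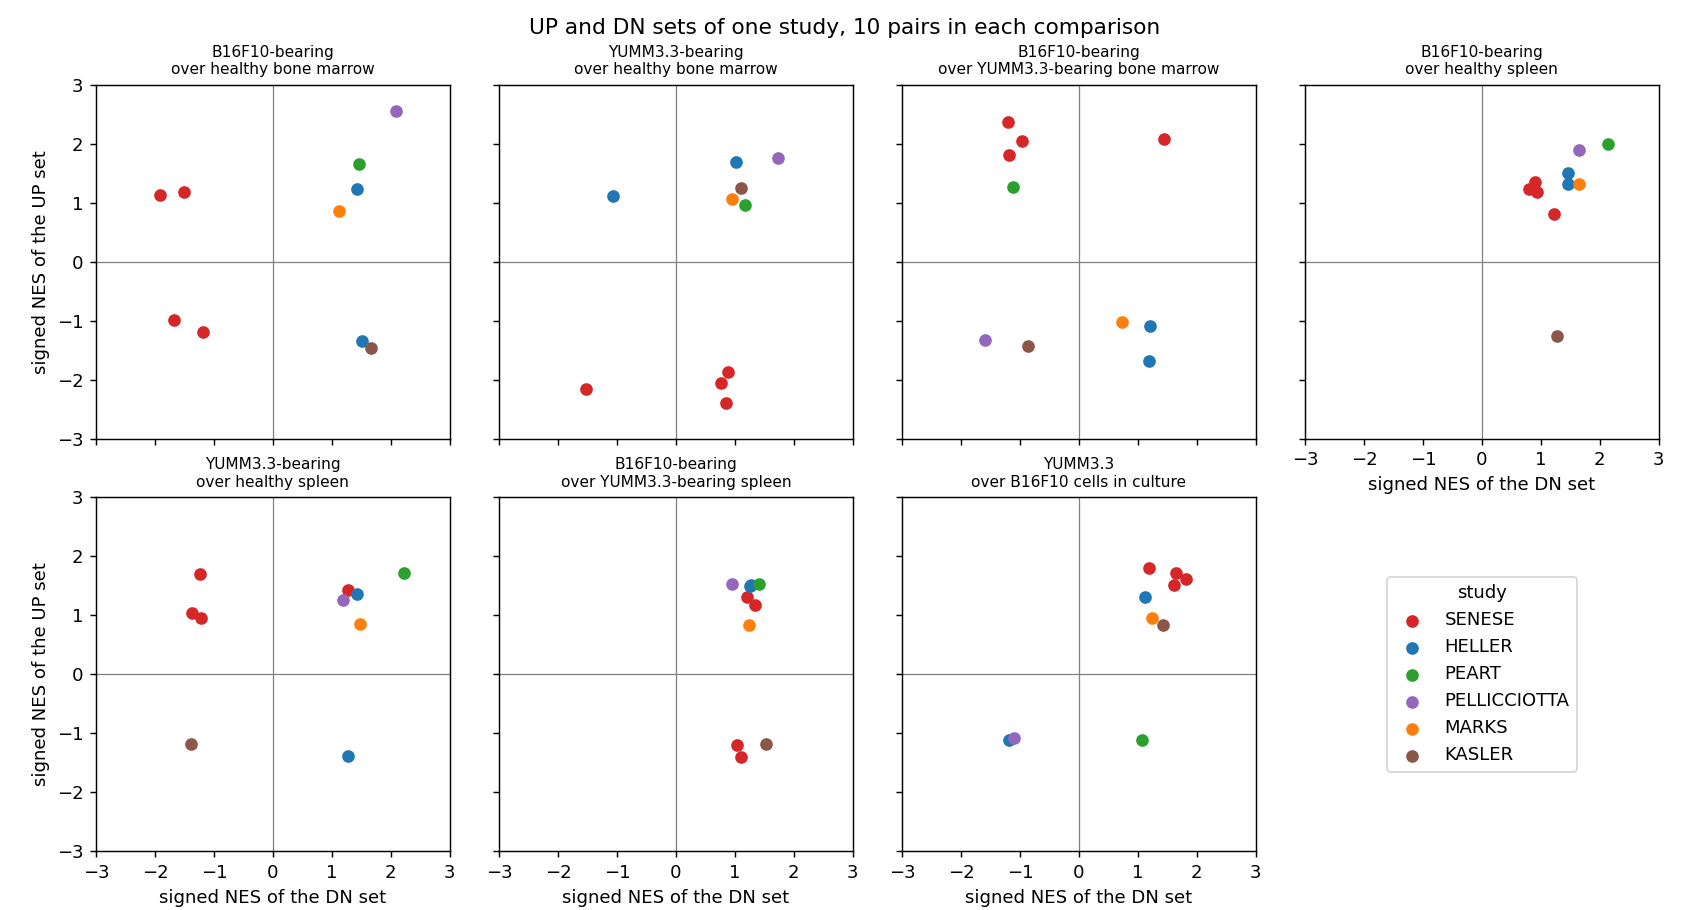
Signed NES of the UP set (vertical axis) against that of the DN set (horizontal axis) for the 10 UP and DN pairs of 6 studies, 1 panel per comparison. For B16F10-bearing over healthy spleen 9 of 10 pairs lie in the upper right quadrant, and in YUMM3.3-bearing over healthy marrow 3 SENESE pairs lie in the lower right.

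Taking each UP set with its DN partner gave 10 pairs. Partners of a pair changed in opposite directions in their source study. In B16F10-bearing over healthy spleen 9 of 10 pairs lay on the same side, against 73.8% of the 701 such pairs in the whole deposited report. For YUMM3.3-bearing over healthy spleen it was 6 of 10, against 43.4%. In marrow, 6 of 10 lay on the same side in B16F10-bearing over healthy animals, against 48.4% of all pairs, and 6 of 10 in YUMM3.3-bearing over healthy animals, against 49.8%. Between the tumours, B16F10-bearing over YUMM3.3-bearing marrow had 3 of 10 on the same side, against 45.9%, and spleen 7 of 10, against 68.2%. In culture, YUMM3.3 over B16F10 had 9 of 10, against 62.3% of 698. Opposite sides with the UP set lower were seen for 3 of 10 pairs in YUMM3.3-bearing over healthy marrow, against 168 of 701. All 3 were SENESE pairs. The count was also 3 of 10 in B16F10-bearing over YUMM3.3-bearing marrow, against 185 of 701, and spleen, against 102 of 701. It was 2 of 10 in B16F10-bearing over healthy marrow, against 146 of 701, and 1 of 10 in each of the other comparisons.

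Of the curated pathways, REACTOME_HDACS_DEACETYLATE_HISTONES, which lists deacetylases, their corepressors and the histones they act on, had the largest score of any HDAC set in YUMM3.3-bearing over healthy marrow. Its NES there was 2.47 in the authors' deposited table, with an FDR q listed as 0, and 48% of its 61 genes lay within the first 11% of the ranked list. It was lower in B16F10-bearing over YUMM3.3-bearing marrow, with NES = -2.51 in the authors' deposited table and an FDR q also listed as 0. Against healthy marrow, B16F10-bearing animals had 1.38 in the authors' deposited table, not called. In spleen the same set had an NES of 1.52 in YUMM3.3-bearing over healthy animals (FDR q = 0.0669) and -1.14 in B16F10-bearing over healthy animals in the authors' deposited tables. YUMM3.3 over B16F10 lines gave 0.70 in the authors' deposited table, not called. Which genes of the set, enzymes or histones, carried the score was not analysed here.

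The other pathways of the deacetylases themselves gave no call. PID_HDAC_CLASSI_PATHWAY, signalling through class I enzymes, had NES from -1.09 to 1.33 over the 7 deposited comparisons. PID_HDAC_CLASSII_PATHWAY ranged from -1.48 to 1.30 and PID_HDAC_CLASSIII_PATHWAY from -1.23 to 1.03. BIOCARTA_HDAC_PATHWAY, which describes class II enzymes in the control of muscle genes, was below 0 in all 4 comparisons of tumour-bearing over healthy animals in the authors' deposited tables: -1.46 and -1.41 in marrow with B16F10 and YUMM3.3, and -1.58 and -1.53 in spleen. None of these passed the threshold.

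REACTOME_TRANSCRIPTION_OF_E2F_TARGETS_UNDER_NEGATIVE_CONTROL_BY_P107_RBL1_AND_P130_RBL2_IN_COMPLEX_WITH_HDAC1 holds 15 genes, among them cell cycle genes that pocket proteins repress together with HDAC1 in resting cells. It was higher in B16F10-bearing over healthy spleen, with a signed NES of 1.92 in the authors' deposited table (FDR q = 0.00188). In YUMM3.3-bearing over healthy spleen its NES was 1.79 in the authors' deposited table (FDR q = 0.00804), and 67% of its genes were in the leading edge. It was also higher in B16F10-bearing over YUMM3.3-bearing marrow, with 1.71 in the authors' deposited table (FDR q = 0.0368). Against healthy marrow the B16F10-bearing animals had 1.32 and the YUMM3.3-bearing animals -1.57 in the authors' deposited tables, neither called. The signs were those of the cell cycle sets named above in each of the 6 myeloid comparisons.

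The PELLICCIOTTA sets come from a study of antigen presentation by tumour cells under deacetylase inhibition. Both were higher in marrow with either tumour, UP and DN together. PELLICCIOTTA_HDAC_IN_ANTIGEN_PRESENTATION_UP had the largest NES of any HDAC set, 2.56 in B16F10-bearing over healthy marrow in the authors' deposited table, with an FDR q listed as 0 and 72% of its 54 genes in the leading edge. PELLICCIOTTA_HDAC_IN_ANTIGEN_PRESENTATION_DN had 2.09 in that deposited table (FDR q = 0.000524), with 71% of its 48 genes. These were the highest leading edge shares among the 36 called values. For YUMM3.3-bearing over healthy marrow the UP set had 1.76 (FDR q = 0.0173) and the DN set 1.73 (FDR q = 0.0223) in the authors' deposited table, with leading edges of 39% and 46%.

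In B16F10-bearing over healthy spleen, PELLICCIOTTA_HDAC_IN_ANTIGEN_PRESENTATION_UP had a normalised score of 1.90 in the authors' deposited table (FDR q = 0.00248). The DN set had 1.65 there in the authors' deposited table (FDR q = 0.0374). For YUMM3.3-bearing over healthy spleen the UP set had 1.26 and the DN set 1.19 in the authors' deposited table, neither called. Both sets were thus called in 3 of the 4 comparisons of tumour-bearing over healthy animals, with the same sign in the fourth. In the direct comparison of B16F10-bearing over YUMM3.3-bearing marrow, the authors' deposited table gave the UP set -1.32 and the DN set -1.59 (FDR q = 0.0648), neither called. For both sets the score over healthy marrow was larger with B16F10 than with YUMM3.3, so the direct comparison had the opposite sign to that difference.

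Of the remaining sets, KASLER_HDAC7_TARGETS_1_DN was called. It holds 17 genes from a study of HDAC7 in T cells, and it was higher in B16F10-bearing over healthy marrow, with NES = 1.67 in the authors' deposited table (FDR q = 0.0293). KASLER_HDAC7_TARGETS_1_UP had -1.47 and KASLER_HDAC7_TARGETS_2_DN -1.22 in that deposited table, neither called. KEGG_T_CELL_RECEPTOR_SIGNALING_PATHWAY, the T cell signal chain, had -1.38 there, not called. In B16F10-bearing over healthy spleen, where 6 HDAC sets were called, it was lower, at -2.37 in the authors' deposited table. Its part in the KASLER scores and in those of the HDAC sets called in spleen was not tested. ROPERO_HDAC2_TARGETS, from work on HDAC2 in cancer cells, and MARTIN_INTERACT_WITH_HDAC, proteins that bind deacetylases, had NES from -1.07 to 1.55 and from -1.56 to 1.53 over the deposited comparisons, with 0 calls.

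**Figure D4:**
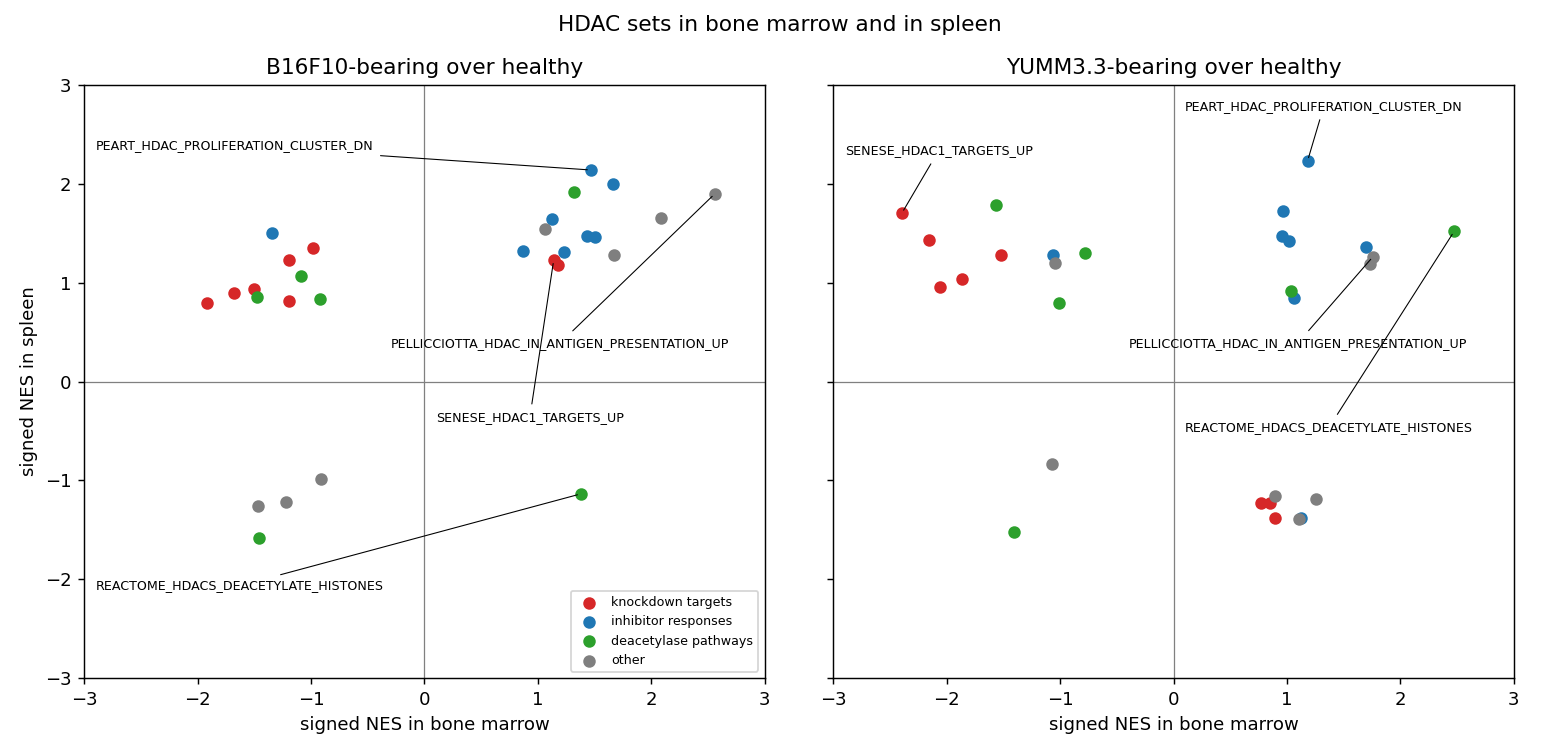
Signed NES in spleen (vertical axis) against that in bone marrow (horizontal axis) of the 29 HDAC sets, coloured by source, for B16F10-bearing over healthy (left) and YUMM3.3-bearing over healthy animals (right). SENESE_HDAC1_TARGETS_UP lies at -2.40 in marrow and 1.70 in spleen on the right.

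Marrow and spleen have no library in common. With B16F10 over healthy, 18 of the 29 HDAC sets had the same sign in both tissues, 62.1%, against 70.2% of all listed sets. With YUMM3.3 over healthy it was 12 of 29, 41.4%, against 43.0% of all listed sets. Sets called the same way in both tissues were the PELLICCIOTTA pair and PEART_HDAC_PROLIFERATION_CLUSTER_UP with B16F10. SENESE_HDAC1_TARGETS_UP was called in opposite ways with YUMM3.3. So was FISCHER_G2_M_CELL_CYCLE, at -2.17 in marrow and 3.24 in spleen in the authors' deposited tables. KEGG_RIBOSOME, a ribosome set, had 3.13 and -1.84 there, both called, while KONG_E2F3_TARGETS was called in spleen only. The share of all listed sets called the same way or in opposite ways is not given here.

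Setting YUMM3.3 over B16F10 in culture beside YUMM3.3-bearing over B16F10-bearing marrow, 12 of 29 HDAC sets, 41.4%, had the same sign, against 46.1% of the 3868 sets listed in both, and for spleen it was 12 of 29 against 40.3%. In marrow 3 sets were called on opposite sides: the SENESE UP sets of HDAC3, of HDAC2 and of HDAC1 with HDAC2 were higher in the YUMM3.3 than in the B16F10 line, and higher in B16F10-bearing than in YUMM3.3-bearing marrow. Their NES in the authors' deposited tables were 1.81, 1.61 and 1.72 in the lines, and 2.08, 2.05 and 1.81 in marrow. In spleen 0 HDAC sets were called on opposite sides. The cell cycle sets KONG_E2F3_TARGETS and FISCHER_G2_M_CELL_CYCLE showed the same reversal with marrow, all values called. They had 1.66 and 2.04 in the lines, and 1.93 and 2.41 in B16F10-bearing over YUMM3.3-bearing marrow, in the authors' deposited tables. KEGG_RIBOSOME, at 1.63 and -3.20, was higher on the YUMM3.3 side in both. The share of all listed sets called on opposite sides is not given here.

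**Figure D5:**
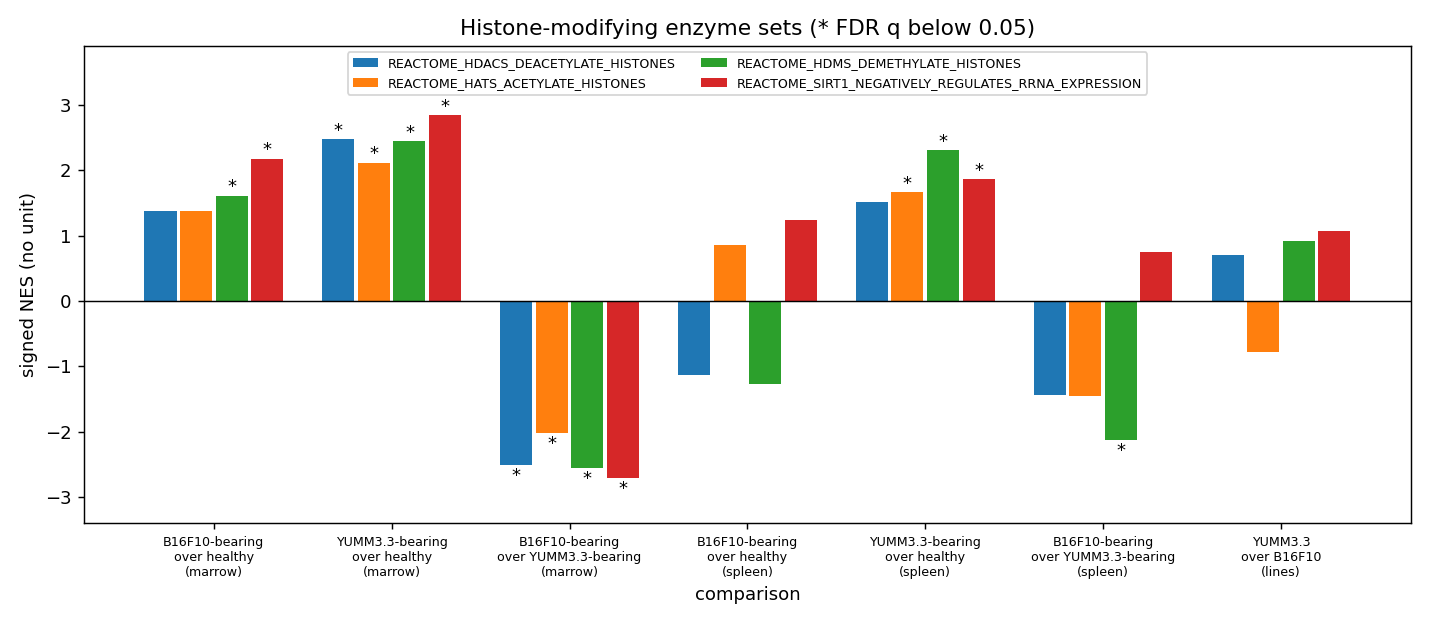
Signed NES (vertical axis, no unit) of 4 REACTOME pathway sets named for histone-modifying enzymes in the 7 comparisons, with an asterisk at FDR q below 0.05. The deacetylase set also lists histones, and genes that the sets share were not counted. In YUMM3.3-bearing over healthy marrow all 4 lie between 2.11 and 2.85, and in B16F10-bearing over YUMM3.3-bearing marrow between -2.70 and -2.02.

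Sets of related pathways without HDAC in the name, for other inhibitors, sirtuins, acetyltransferases and histone demethylases, numbered 24. Of these, 1 matched by name only and describes a factor of mRNA decay. In B16F10-bearing over healthy marrow 5 were higher, 20.8% against the background of 20.1%, and 0 lower. With YUMM3.3 over healthy marrow 5 were higher, 20.8% against 9.68% of all listed sets, and 1 lower, 4.17% against 6.52%. Between the tumours in marrow 0 were higher and 7 lower with B16F10, and the lower ones were 29.2%, against 8.4% of all listed sets. REACTOME_HATS_ACETYLATE_HISTONES, the enzymes opposing deacetylases, had an NES of 2.11 in YUMM3.3-bearing over healthy marrow in the authors' deposited table. REACTOME_HDMS_DEMETHYLATE_HISTONES had 2.44 and REACTOME_SIRT1_NEGATIVELY_REGULATES_RRNA_EXPRESSION, a sirtuin set, 2.85 in that deposited table. Sets named for enzymes that add and that remove histone marks were thus higher together with the deacetylase set. The HATS, HDMS and SIRT1 sets were among the 5 higher sets here and among the 7 lower ones between the tumours. Genes that they and the deacetylase set have in common were not counted here, so their scores need not be separate findings. KEGG_RIBOSOME had an NES of 3.13 in YUMM3.3-bearing over healthy marrow and -3.20 in B16F10-bearing over YUMM3.3-bearing marrow in the authors' deposited tables, and its part in the scores of the histone enzyme sets was not tested. In spleen of YUMM3.3-bearing over healthy animals KEGG_RIBOSOME was lower, at -1.84, while REACTOME_HDMS_DEMETHYLATE_HISTONES was higher, at 2.31, in the authors' deposited table.

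Inhibitor sets of that list were called in marrow as well. MOREIRA_RESPONSE_TO_TSA_UP, genes raised by trichostatin A, had an NES of 1.89 in B16F10-bearing over healthy and 2.02 in YUMM3.3-bearing over healthy marrow in the authors' deposited tables. JOSEPH_RESPONSE_TO_SODIUM_BUTYRATE_UP, genes raised by butyrate, had 1.86 and 2.07 in the same comparisons of the authors' deposited tables. Both were lower in B16F10-bearing over YUMM3.3-bearing marrow, with -1.92 and -1.74 in the authors' deposited table, as was HELLER_HDAC_TARGETS_UP. MOREIRA_RESPONSE_TO_TSA_DN, genes lowered by trichostatin A, was lower there too, at -1.72 in the authors' deposited table. Together with the HELLER, PEART and MARKS sets, 10 inhibitor sets had UP names and 9 had DN names. The PELLICCIOTTA pair, which also comes from a study of deacetylase inhibition, was left out of this count. In YUMM3.3-bearing over healthy marrow 3 of the 10 UP sets were higher, against 73 of the 881 UP names among all listed sets. The other 7 had NES from -1.19 to 1.5 in the authors' deposited table, not called. Of the 9 DN sets 0 were called there, with NES from -1.58 to 1.55 in the same deposited table. Among the 802 DN names of all listed sets, 33 were higher and 49 lower. MOREIRA_RESPONSE_TO_TSA_DN, at 1.55, lay on the same side as its UP partner. Outside this count, the PELLICCIOTTA UP and DN sets were both called higher there, at 1.76 and 1.73 in the authors' deposited table. For B16F10-bearing over YUMM3.3-bearing marrow 3 of the 10 UP sets and 1 of the 9 DN sets were lower, against 50 of 881 and 33 of 802. In B16F10-bearing over healthy marrow 3 of the 10 UP sets were higher, against 211 of 881, and 0 of the 9 DN sets were called. In B16F10-bearing over healthy spleen 1 UP set and 3 DN sets were higher, against 192 of 881 and 132 of 802. In YUMM3.3-bearing over healthy spleen 1 UP set was higher and 1 lower, and 2 DN sets were higher. In spleen, 2 of the 24 were higher in B16F10-bearing over healthy animals, 8.33% against 16.6% of all listed sets, and 0 lower. With YUMM3.3 over healthy spleen 5 were higher, 20.8% against 15.6%, and 2 lower, 8.33% against 5.31%. Between the tumours in spleen 2 were higher with B16F10, 8.33% against 9.63%, and 2 lower, 8.33% against 1.47%. In culture 3 were higher in YUMM3.3, 12.5% against 11.8%, and 1 lower, 4.17% against 1.47%.

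Sets for other blood cells were as follows in the authors' deposited tables. HADDAD_B_LYMPHOCYTE_PROGENITOR, which marks B cell precursors, had NES of -2.74 in B16F10-bearing over healthy and -1.65 in YUMM3.3-bearing over healthy marrow, the first called in the authors' deposited table. WELCH_GATA1_TARGETS, an erythroid set, was higher in B16F10-bearing over healthy marrow and spleen, at 1.93 and 2.31 in the authors' deposited tables, and was not called in either tissue with YUMM3.3. A set of platelet-specific genes was lower in YUMM3.3-bearing over healthy spleen, at -2.51, and in B16F10-bearing over healthy marrow, at -1.75, in the authors' deposited tables. It was higher in B16F10-bearing over YUMM3.3-bearing spleen, at 2.23 in the authors' deposited table. With B16F10 over healthy marrow the B cell and platelet sets were thus lower and the erythroid set higher, and their part in the scores of the HDAC sets was not tested.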

How the data were processed

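RNA was sequenced in 20 libraries, and the values used came from 14 gene set enrichment reports deposited by the authors, 2 per comparison. The submitters' processing notes list the mm10 build and the tools FastQC 0.11.8, featureCounts 1.6.0, STAR 2.7.1a and DESeq2 1.22.2, with no role stated. Per the file headers, the deposited scores are an enrichment score and an NES for each set, and the deposited p-values are a nominal p, an FDR q and a family-wise p. The sources used here give neither the ranking of genes nor what was permuted.

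The first group in the name of a report was taken as the one in which its sets are higher, and the cell line reports were taken by their up or down label. The size of each NES then received the sign of that direction. As a check, the sign of B16F10-bearing over YUMM3.3-bearing was that of the difference between the values over healthy in 77.0% of sets in marrow and 85.4% in spleen. This check would miss a reversal of all comparisons of a tissue, and does not cover the lines. No test was run, since the reports hold no values per library: counts are set beside the share of all listed sets called. The alternatives were FDR q below 0.25, a family-wise p below 0.05, sets of 25 to 200 genes and, for medians, each source counted once. Every set that the name rule found is accounted for, and those called at least once are described with their values. The sets and lists were chosen with earlier results of these data known. Tables were made with Python 3.11.15 and pandas 2.3.3.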

Additional observations from a re-analysis of the deposited data

How the results depend on the processing

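All counts are of the 29 HDAC sets and come from the authors' deposited tables. At FDR q below 0.25, B16F10-bearing over healthy marrow had 10 higher and 7 lower, 34.5% and 24.1% against 37.1% and 17.4% of all listed sets. YUMM3.3-bearing over healthy marrow had 7 lower, 24.1% against 20.1%, and B16F10-bearing over YUMM3.3-bearing marrow 5 lower, 17.2% against 17.9%. In spleen, B16F10-bearing over healthy had 13 higher and 1 lower, 44.8% and 3.45% against 34.7% and 5.79%. YUMM3.3-bearing over healthy spleen had 12 higher and 4 lower, 41.4% and 13.8% against 23.3% and 25%. Between the tumours in spleen 8 were higher and 2 lower, 27.6% and 6.9% against 28.4% and 5.1%, and in the lines 13 were higher, 44.8% against 35.4%. At a family-wise p below 0.05, under which 0.335% to 6.85% of all listed sets were called in 1 direction, the counts were 1 higher and 0 lower in B16F10-bearing over healthy marrow, 1 higher and 2 lower in YUMM3.3-bearing over healthy marrow, 1 each way between the tumours in marrow, 1 higher in spleen with B16F10 over healthy, 1 higher with YUMM3.3 over healthy, and 0 in the lines. A single set is 3.45% of the 29. The calls in the lines were thus lost under the family-wise p. With sets of 25 to 200 genes, which leaves 15 HDAC sets in the myeloid comparisons, 2 were lower in YUMM3.3-bearing over healthy marrow, 13.3% against 6.71% of all such sets. In B16F10-bearing over YUMM3.3-bearing marrow 2 were higher and 1 lower, 13.3% and 6.67% against 8.57% and 9.51%, and in YUMM3.3-bearing over healthy spleen 2 were higher, 13.3% against 16.9%. The remaining counts stayed within 1.5 times their value: 3 of 14 at FDR q below 0.25, 5 of 14 under the family-wise p and 10 of 14 under the size limits. All 5 under the family-wise p were counts of 0, which a stricter rule cannot change, and every count above 0 moved. The same counts of 0 are among the 10 under the size limits, which cannot raise them either. At FDR q below 0.25, the count of lower sets in the lines stayed at 0. Stricter or looser rules change the counts by their own construction. The signs of the scores do not depend on these rules. Of 14 median NES of the UP and DN sets, 2 were on the other side of 0 under the size limits and 1 with each source counted once.

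Libraries could not be left out, because each comparison has 1 deposited value per set. No paired analysis was possible because the reports hold no values per library. The FDR q of a set with 15 genes rests on few genes, and 5 of the 203 values have an FDR q listed as 0, whose size is not resolved.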
